A study of Gallus gallus with 6 samples.

Results

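The genes described here encode the respiratory chain and ATP synthase of the mitochondrial inner membrane. They were taken from the deposited gene table of 18495 genes by name and chromosome, not by any measured value: every gene whose name starts with NDUF, SDHA to SDHD, UQCR, COX4 to COX8 or ATP5, and every protein-coding gene on the mitochondrial chromosome. The rule found 91 genes, of which 78 are nuclear and 13 mitochondrial. Of the nuclear genes 67 encode structural subunits and 11 encode assembly or other factors, such as the NDUFAF and SDHAF genes.

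The respiratory chain passes electrons from NADH and succinate through complexes I to IV to oxygen and pumps protons, and complex V, the ATP synthase, uses the proton gradient to make ATP. All but complex II are built from subunits of both genomes, so messages made in the nucleus and in the mitochondrion have to supply a single assembly. Mitochondrial messages arise by cutting long polycistronic transcripts, whereas each nuclear gene has its own promoter. Fat cell precursors add mitochondria as they mature.

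The cells were ICP1, immortalized chicken preadipocytes, and their RNA was sequenced 48 h after plasmid transfection. The KLF2 group holds 3 libraries from wells given pCMV-myc carrying KLF2, a zinc-finger transcription factor, and the EV group holds 3 libraries from wells given the empty pCMV-myc plasmid. All 6 wells came from a single cell line in the same medium with the same reagent. The sample titles number the replicates, called wells here, without saying whether they shared a transfection or day. The p-values reflect the spread between these replicates, not between cell lines or animals. Messages were selected by their poly(A) tails, and nothing in the protocols marks strand, so reads of overlapping genes cannot be told apart; 39 of the 91 genes overlap a neighbour by their start and end positions. In bulk samples, fewer cells of a type and less RNA per cell cannot be told apart.

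Libraries are called by their labels. Assigned reads ranged from 13255169 to 14168807 per library, and 15469 to 16090 genes had at least a read. KLF2 itself had normalized counts of 1052, 1618 and 2412 in KLF2 1 to 3, against 1093, 675 and 697 in EV 1 to 3, with plasmid and chromosomal messages counted together. KLF2 1 thus lay below EV 1, and the groups overlapped (log2 fold change 1.00, SE 0.31, adjusted p = 0.962, limma). Reads of nuclear ribosomal RNA genes made up 0.131% of KLF2 3 and 0.350% of EV 1, against 0.00162% to 0.0215% in the other libraries. With EV 1 and KLF2 3 left out, KLF2 had a log2 fold change of 0.93 and an adjusted p of 0.0184 in limma. That fit drops EV 1, the EV library with the highest KLF2 count, and has fewer libraries per group. Without EV 1 alone, KLF2 had a log2 fold change of 1.22 and an adjusted p of 0.999991 in limma. In every other setting tried the adjusted p of KLF2 was 0.350 or higher, the lowest being that of limma without KLF2 3. The result thus holds for that choice of libraries only. The 12 preadipocyte and fibroblast markers summed to 165356 to 180654 normalized counts in KLF2 libraries and 176934 to 194803 in EV libraries. Most of this sum came from VIM, and DLK1 and ENG were near 0. The 7 adipocyte markers summed to 274 to 325 in KLF2 libraries and 297 to 340 in EV libraries, most of it from PPARG. The 3 epithelial markers found summed to at most 10.2. Endothelial markers summed to 925 to 1096 in KLF2 libraries and 926 to 1214 in EV libraries, most of it from ERG. Leukocyte markers summed to 1028 to 1337 in KLF2 libraries and 982 to 1356 in EV libraries, most of it from SPI1. Muscle markers summed to 6.09 to 32.5 in KLF2 libraries and 23.7 to 28.5 in EV libraries.

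No respiratory chain gene differed between KLF2 and EV wells at an adjusted p below 0.05 in limma, edgeR or DESeq2. All 91 genes passed the filter on low values and were tested among 16765 genes, of which 0% had an adjusted p below 0.05 in limma. Adjusted p-values of the 91 genes ran from 0.962 to 0.996. At an unadjusted p below 0.05, limma gave 2 of the 91 genes higher in KLF2 wells, beside 0.913% of all genes tested, and 0 lower, beside 1.20%. On the recovered reads the same threshold was passed by 1 of the 91 genes in edgeR, beside 0.556% of all genes tested that were higher, and by 3 in DESeq2, beside 0.395%. All were higher, and 0 passed after adjustment with either tool. Of the 91 genes, 0 had an adjusted p below 0.05 in the authors' deposited table and 3, all higher, had an unadjusted p below it, beside 0.395% of all genes that were higher there. The deposited values nearly equal those of DESeq2 on the recovered reads, so they do not add a separate result. Without KLF2 3, 16 of the 91 genes had an unadjusted p below 0.05 in limma. Over all genes the count rose from 354 of 16765 in the main fit to 2081. With EV 1 and KLF2 3 left out, 18 of the 91 genes had such a p, when 1712 genes in all passed. In both fits 0 of the 91 genes passed after adjustment. The number of genes tested in these fits is not given here, so the counts are not read as shares.

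Among the 91 genes, the highest levels per kb were those of mitochondrial genes, but not all 13 lay above every nuclear subunit. Over all genes tested the highest level was 49991 per kb. Per kb of gene length, COX1, the catalytic core of cytochrome c oxidase, had the highest level of the 91 genes, 24174 normalized counts per kb over all 6 libraries. COX3 and COX2, the other mitochondrial core subunits of complex IV, had 20607 and 20546 per kb, and ATP6, subunit a of the ATP synthase proton channel, had 20296 per kb. The 7 ND genes, which build the membrane arm of complex I, ranged from 220 per kb for ND6 to 8476 per kb for ND1. ND6 is the only one of the 13 genes listed on the minus strand. Nuclear subunits had a median of 574 per kb and ranged from 10.4 per kb for NDUFA1, a small membrane arm subunit of complex I, to 5606 per kb for COX6A1, the ubiquitous form of complex IV subunit 6A.

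**Figure D1:**
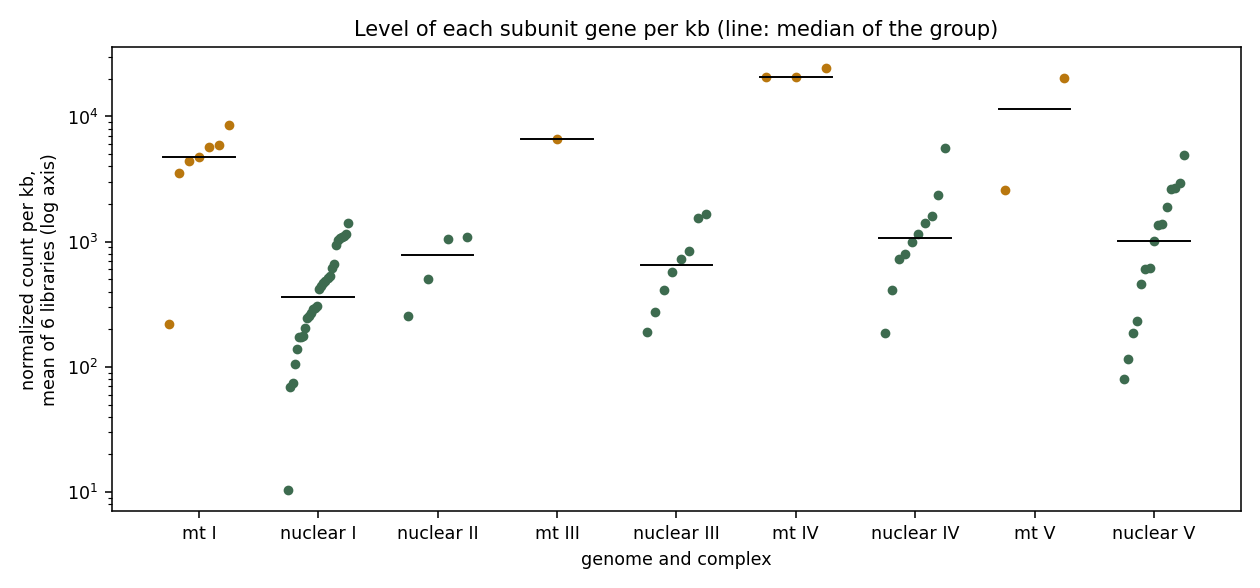
Level of each of the 80 subunit genes, as normalized counts per kb averaged over 6 libraries (log axis), by genome and complex, with the median of each set as a line. Mitochondrial genes of complex IV lie between 20546 and 24174 per kb, while nuclear subunits of complex I have a median of 363 per kb.

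The 13 mitochondrial genes all had lower mean levels in KLF2 wells than in EV wells, with a median log2 fold change of -0.29 beside -0.006 over all genes tested, yet the groups overlapped for each of them. COX1 had normalized counts of 19678, 39872 and 41461 in KLF2 1 to 3, against 36890, 44013 and 43049 in EV 1 to 3. KLF2 1 alone was low, while KLF2 2 and 3 lay inside the range of the EV wells (log2 fold change -0.37, SE 0.27, adjusted p = 0.962, limma). CYTB, the cytochrome b of complex III, had 3791, 7748 and 8337 in KLF2 1 to 3, against 7228, 9224 and 8651 in EV 1 to 3 (log2 fold change -0.41, SE 0.28). Here too KLF2 1 stood below the other 5 libraries.

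ATP6 had normalized counts of 7331, 15710 and 12748 in KLF2 1 to 3, against 10474, 19205 and 17828 in EV 1 to 3 (log2 fold change -0.43, SE 0.34). Each group held a low library, KLF2 1 and EV 1. ND4L, a small membrane arm subunit of complex I, had 807, 1278 and 989 in KLF2 1 to 3, against 658, 1367 and 1181 in EV 1 to 3, so that EV 1 was the lowest of all (log2 fold change -0.019, SE 0.28). ND6 had the widest spread, with 42.7, 134 and 129 in KLF2 1 to 3, against 99.6, 159 and 125 in EV 1 to 3 (log2 fold change -0.47, SE 0.41). KLF2 1 held the lowest value of 11 of the 13 genes and EV 1 that of ND2 and ND4L. EV 2 held the highest value of 12, the exception being COX3.

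**Figure D2:**
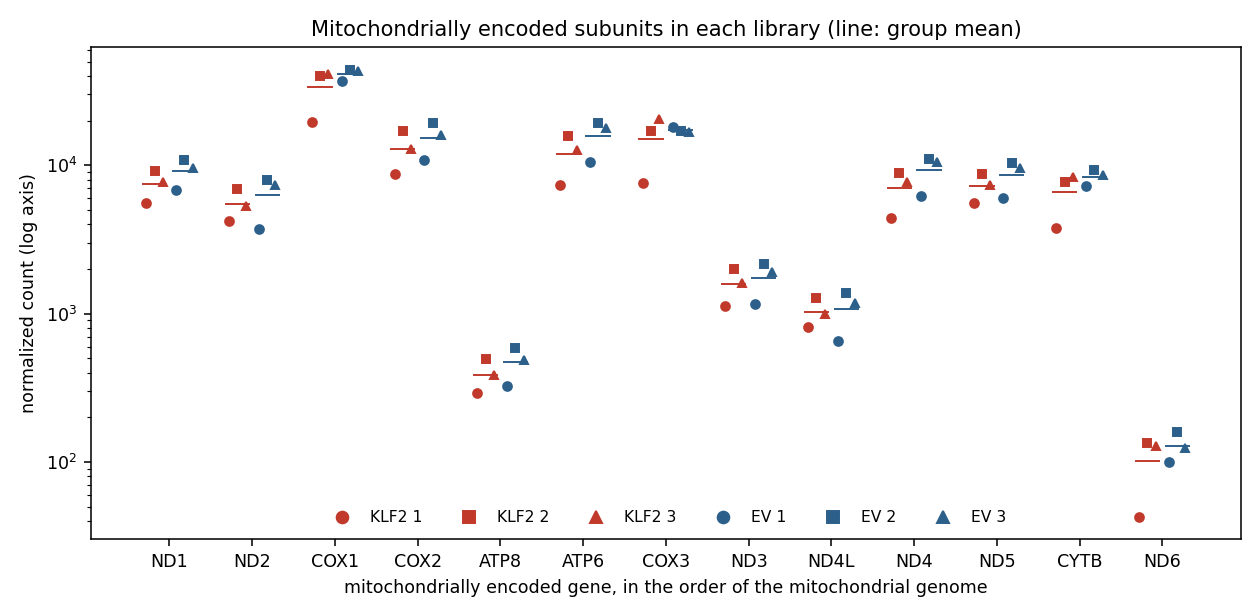
Normalized counts (log axis) of the 13 mitochondrially encoded genes in each KLF2 library (red, left) and EV library (blue, right), with group means as lines. KLF2 1 is lowest for 11 of the 13 genes, and the groups overlap for each gene.

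The size and direction depended on which well was left out and on the gene length trend. Without KLF2 1 the median log2 fold change of the mitochondrial genes was -0.021 and 5 of 13 were higher in KLF2 wells. Without EV 2 it was -0.15 with 3 higher, and without EV 3 it was -0.23 with 1 higher. Without KLF2 2 the median was -0.46, without EV 1 it was -0.50 and with EV 1 and KLF2 3 left out it was -0.53, with all 13 lower. With the gene length trend removed and no well left out, the median was -0.16 and 2 of 13 were higher. The 13 genes together took 0.809% ± 0.263 of assigned reads in KLF2 libraries and 0.998% ± 0.164 in EV libraries (SD, n = 3 each).

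Nuclear subunits showed no common direction. Of 67, 38 were higher and 29 lower in KLF2 wells, with a median log2 fold change of 0.043. By library, the median log2 deviation from each gene's mean was -0.11, -0.10 and 0.31 in KLF2 1 to 3, against 0.10, -0.006 and -0.13 in EV 1 to 3. KLF2 3 held the highest value of 39 of the 67 genes and KLF2 1 the lowest of 30, while EV 1 and EV 3 held the lowest of 15 each. KLF2 3 thus stood above the EV wells, and the medians of KLF2 1 and 2 lay between those of EV 3 and EV 2. Without KLF2 3 the split turned to 26 higher and 41 lower (median -0.093), without EV 3 to 29 and 38 (median -0.036), and with EV 1 and KLF2 3 left out to 28 and 39 (median -0.025). Without KLF2 1 it was 54 higher and 13 lower (median 0.094), and without EV 1 it was 50 and 17 (median 0.084). With the gene length trend removed it was 45 and 22 (median 0.11).

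**Figure D3:**
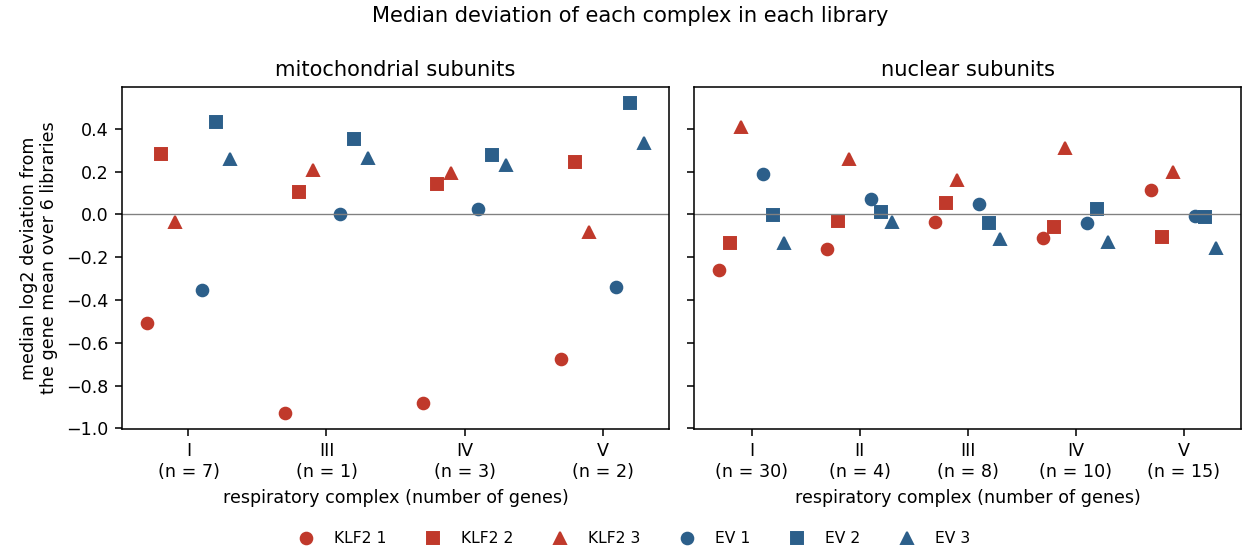
Median log2 deviation of each complex's genes from their own means over 6 libraries, by library, for mitochondrial subunits (left) and nuclear subunits (right). KLF2 1 is the lowest library for the mitochondrial genes of every complex shown, and KLF2 3 is the highest for the nuclear genes of every complex.

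Complex I takes electrons from NADH. Its 30 nuclear subunits split into 13 higher and 17 lower (median -0.035), which turned to 20 and 10 without EV 1 (median 0.059) or without KLF2 1 (median 0.055). Without KLF2 3 they split into 8 higher and 22 lower (median -0.24). The 8 subunits of the N module, which oxidises NADH, had a median of 0.068, and the 7 of the Q module, which reduces ubiquinone, had a median of -0.014. The 8 of the distal P module, the far end of the membrane arm, had 7 lower and a median of -0.12. The lowest of these was NDUFB9, an LYR-motif subunit, with normalized counts of 362, 834 and 1562 in KLF2 1 to 3, against 1533, 1018 and 1011 in EV 1 to 3. The KLF2 wells held both the lowest and the highest value (log2 fold change -0.58, SE 0.55). The 6 of the proximal P module, the nearer part of the membrane arm, had 4 higher, 2 lower and a median of 0.040. The lower ones were NDUFA13 and NDUFS5. NDUFA13, a proximal membrane arm subunit also known as GRIM19, had 228, 274 and 760 in KLF2 1 to 3, against 982, 360 and 317 in EV 1 to 3 (log2 fold change -0.41, SE 0.64). NDUFS5, an intermembrane-space subunit, had 272, 328 and 841 in KLF2 1 to 3, against 1023, 403 and 378 in EV 1 to 3 (log2 fold change -0.35, SE 0.58). For both genes the high wells were EV 1 and KLF2 3, those with the most ribosomal RNA reads; the part of these reads in the result was not tested. NDUFS1, the largest iron-sulphur core subunit, was steady, with 4322, 4412 and 4327 in KLF2 1 to 3, against 4656, 4488 and 4254 in EV 1 to 3. NDUFA10, a membrane arm subunit with the highest level per kb of the nuclear complex I genes, averaged 3544 ± 264 in KLF2 wells and 3439 ± 246 in EV wells (SD, n = 3 each). NDUFA1 averaged 16.4 ± 9.43 in KLF2 wells and 11.9 ± 6.92 in EV wells.

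Complex II, succinate dehydrogenase, is wholly nuclear. SDHA, its flavoprotein, averaged 2515 ± 95.7 normalized counts in KLF2 wells and 2477 ± 238 in EV wells (SD, n = 3 each). SDHB, the iron-sulphur subunit, averaged 1142 ± 333 in KLF2 wells and 1175 ± 7.81 in EV wells. SDHC, a haem-binding membrane anchor, had 286, 597 and 887 in KLF2 1 to 3, against 736, 578 and 592 in EV 1 to 3. Its KLF2 wells again lay on both sides of the EV wells (log2 fold change -0.24, SE 0.38).

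Complex III hands electrons from ubiquinol to cytochrome c. Of its 8 nuclear subunits 5 were higher and 3 lower (median 0.070). UQCRHL, the hinge protein, had normalized counts of 1030, 757 and 628 in KLF2 1 to 3, against 495, 687 and 575 in EV 1 to 3. KLF2 3 lay below EV 2, so the groups overlapped (log2 fold change 0.44, SE 0.20, unadjusted p = 0.0471, adjusted p = 0.962, limma). UQCR11, a small accessory subunit, had 985, 651 and 539 in KLF2 1 to 3, against 390, 615 and 513 in EV 1 to 3 (log2 fold change 0.50, SE 0.24, unadjusted p = 0.058). UQCR10, another small accessory subunit, ran the other way across wells, with 390, 754 and 1236 in KLF2 1 to 3, against 903, 671 and 760 in EV 1 to 3. Its log2 fold change was -0.11 in limma, with the sign turned to 0.029 in edgeR and DESeq2. UQCRQ averaged 453 ± 217 in KLF2 wells and 464 ± 148 in EV wells, and UQCRB, a quinone-binding subunit, 1135 ± 54.4 in KLF2 wells and 957 ± 165 in EV wells (SD, n = 3 each). UQCRFS1, the Rieske iron-sulphur protein, averaged 5087 ± 341 in KLF2 wells and 4758 ± 236 in EV wells.

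Complex IV reduces oxygen. Of its 10 nuclear subunits 8 were higher and 2 lower (median 0.11), but without KLF2 3 the median was -0.078. The 10 include NDUFA4, first described in complex I, and COX7A2L, with log2 fold changes of 0.19 and 0.24. COX7A2, the ubiquitous form of subunit 7A, had the lowest unadjusted p of the 91 genes. It lies on chromosome 3 of GRCg7b from 80478901 to 80488192 and overlaps TMEM30A. Its normalized counts were 777, 580 and 697 in KLF2 1 to 3, against 511, 600 and 435 in EV 1 to 3. KLF2 2 lay below EV 2, so the groups overlapped (log2 fold change 0.41, SE 0.18, unadjusted p = 0.0397, adjusted p = 0.962, limma). COX7A2L, a related protein that helps join complexes III and IV into supercomplexes, averaged 2187 ± 416 in KLF2 wells and 1831 ± 103 in EV wells (SD, n = 3 each). COX6A1 averaged 3562 ± 882 in KLF2 wells and 3401 ± 306 in EV wells. COX4I1, the ubiquitous subunit 4, averaged 1785 ± 211 in KLF2 wells and 1770 ± 151 in EV wells, a log2 difference of 0.0088 that was -0.0089 when scaled without mitochondrial genes. COX7C, a small membrane subunit, had 762, 620 and 399 in KLF2 1 to 3, against 345, 588 and 484 in EV 1 to 3 (log2 fold change 0.31, SE 0.26).

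Complex V makes ATP. Of its 15 nuclear subunits 10 were higher and 5 lower (median 0.11). ATP5H, subunit d of the peripheral stalk, was the only one of the 91 genes whose groups did not overlap, beside 3.39% of all genes tested that were higher without overlap and 3.26% that were lower. It had normalized counts of 2108, 2086 and 2059 in KLF2 1 to 3, against 1599, 2028 and 1829 in EV 1 to 3. The KLF2 wells lay close together just above EV 2 (log2 fold change 0.20, SE 0.14, adjusted p = 0.962, limma). ATP5E, the epsilon subunit of the rotor, averaged 674 ± 84.9 in KLF2 wells and 538 ± 115 in EV wells (SD, n = 3 each). Genes of the proton-carrying c ring found by the rule were ATP5G3 and ATP5MC1. ATP5G3 averaged 4003 ± 1051 in KLF2 wells and 3246 ± 471 in EV wells. ATP5MC1 averaged 1333 ± 251 in KLF2 wells and 1053 ± 125 in EV wells. A further c ring gene outside the rule, matched to ATP5MC3, had a log2 fold change of 0.052. ATP5B, the catalytic beta subunit, averaged 8313 ± 1135 in KLF2 wells and 8545 ± 1620 in EV wells. The alpha subunit has a copy on each sex chromosome: the Z copy ATP5F1AZ averaged 5505 ± 873 in KLF2 wells and 5133 ± 442 in EV wells, and the W copy ATP5A1W averaged 419 ± 58.4 in KLF2 wells and 386 ± 15.7 in EV wells. No source used here says how reads shared by the W and Z copies were counted, so the split between them is uncertain.

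**Figure D4:**
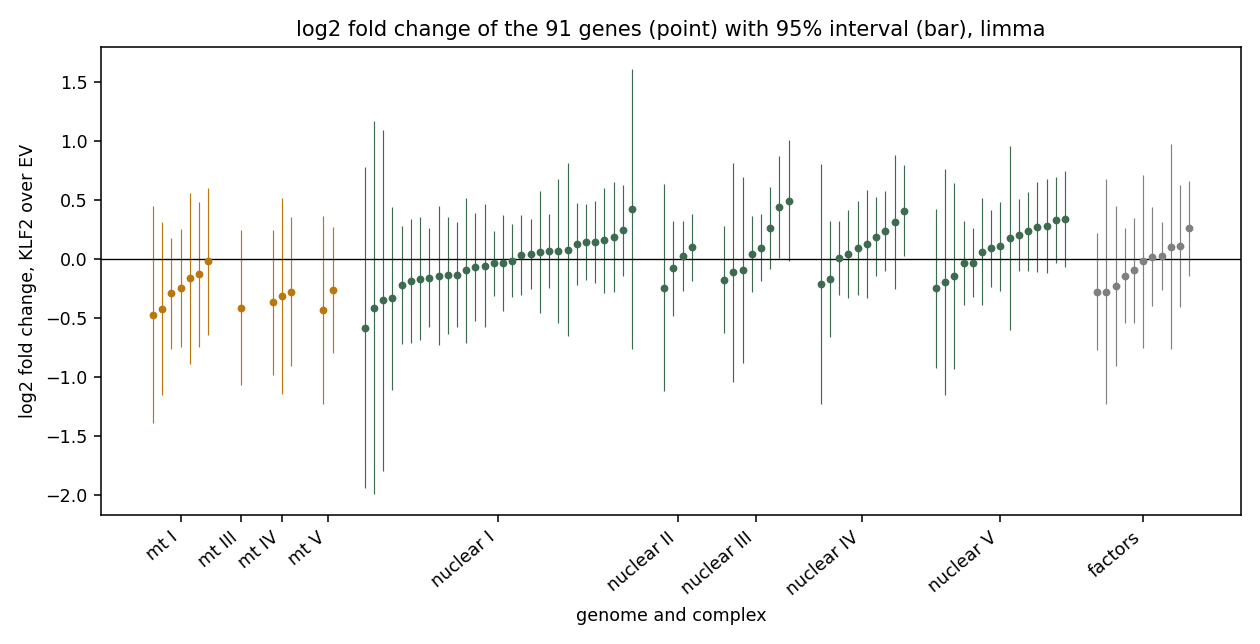
log2 fold change, KLF2 over EV, of the 91 genes (points) with 95% intervals from limma (bars), by genome and complex, with assembly and other factors at the right. The 13 mitochondrial points lie below 0 with intervals that cross it, and nuclear points lie on both sides.

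The 11 assembly and other factors split into 5 higher and 6 lower (median -0.018). NDUFAF7, a methyltransferase that modifies a complex I core subunit, had normalized counts of 310, 525 and 604 in KLF2 1 to 3, against 618, 515 and 550 in EV 1 to 3 (log2 fold change -0.28, SE 0.23). Only KLF2 1 lay below the EV wells.

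Ratios between genes of the same library do not depend on how libraries were scaled. Among all 78 pairs of mitochondrial genes the steadiest was ATP6 over ND4, at 1.66, 1.78 and 1.65 in KLF2 1 to 3, against 1.70, 1.73 and 1.70 in EV 1 to 3. The most variable was COX3 over ND4L, at 9.44, 13.3 and 20.8 in KLF2 1 to 3, against 27.3, 12.5 and 14.1 in EV 1 to 3. EV 1 and KLF2 3 were the highest and KLF2 1 the lowest, and the groups overlapped. In every pair the gene with the higher mean level per kb was divided by the other, so the direction depends on that order. Of the 78 pairs, 11 had ratios that did not overlap between the groups, in either direction. In this order 10 of the 11 were lower in KLF2 wells, and the reverse order would turn each. The share without overlap was 6.01% over all gene pairs in which both averaged 20 or more normalized counts and had reads in every library. Pairs share genes and are not independent. Of the 619 pairs within nuclear complexes, 17 did not overlap. Among these was the steadiest pair of complex I, NDUFV2 over NDUFA9, at 1.15, 1.25 and 1.22 in KLF2 1 to 3, against 1.15, 1.14 and 1.14 in EV 1 to 3; unrounded, KLF2 1 lay just above EV 1. The highest library was a median of 1.52 times the lowest over the mitochondrial pairs, and between 1.85 and 2.35 times over the nuclear pairs of each complex. Of 28 pairs in complex III, UQCR10 over UQCR11 was the most variable, at 0.396, 1.16 and 2.29 in KLF2 1 to 3, against 2.31, 1.09 and 1.48 in EV 1 to 3. In complex IV it was COX5B over COX7C, at 0.668, 1.295 and 3.72 in KLF2 1 to 3, against 4.12, 1.36 and 1.72 in EV 1 to 3. These ratios again had EV 1 and KLF2 3 highest and KLF2 1 lowest.

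**Figure D5:**
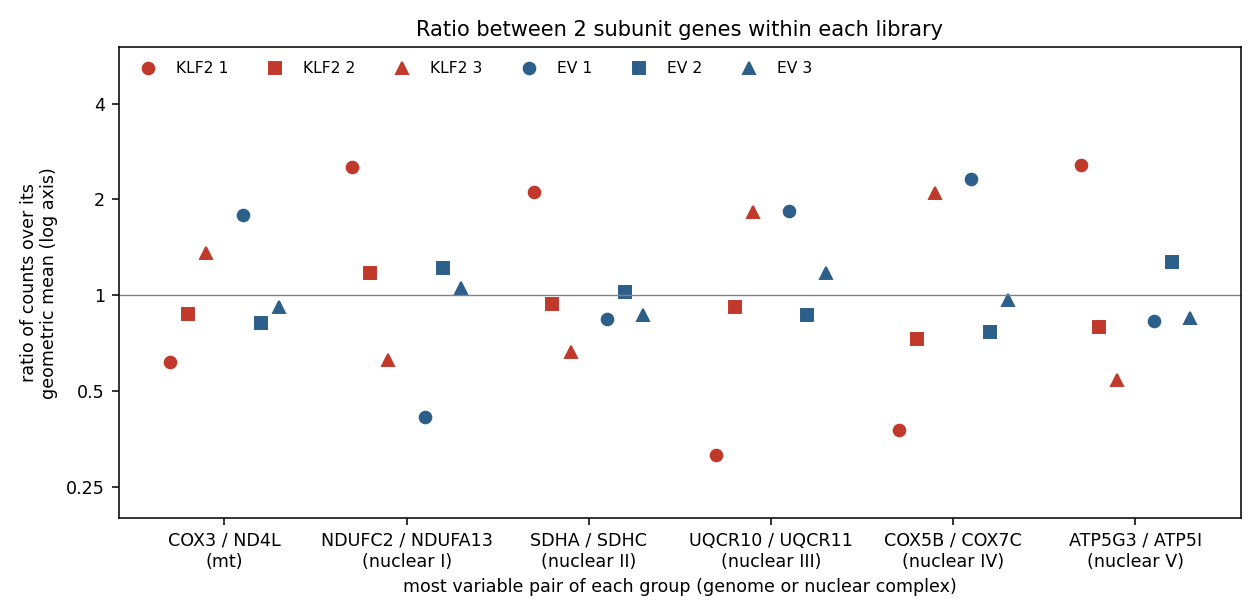
Ratio of normalized counts, divided by its geometric mean over 6 libraries (log axis), for the most variable pair among mitochondrial genes and among the nuclear subunits of each complex, in KLF2 libraries (red, left) and EV libraries (blue, right). KLF2 1 is the highest or lowest library of each pair, and the groups overlap in each pair plotted.

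The balance between the genomes also differed from well to well within each group. The geometric mean level per kb of the 13 mitochondrial genes was 7.88, 14.2 and 9.30 times that of the 67 nuclear subunits in KLF2 1 to 3, against 8.66, 15.5 and 15.1 times in EV 1 to 3. KLF2 2 sat with EV 2 and EV 3, and EV 1 sat with KLF2 1 and KLF2 3. On the log2 scale this ratio averaged 3.34 ± 0.44 in KLF2 wells and 3.66 ± 0.47 in EV wells (SD, n = 3 each), a difference of -0.32 that is smaller than either SD. By complex the difference, KLF2 minus EV, was -0.20 in complex I, -0.53 in complex III, -0.42 in complex IV and -0.44 in complex V, and the groups overlapped in each. In complex III its size exceeded both SDs (0.50 in KLF2 wells, 0.21 in EV wells). In complex IV it exceeded the SD of EV wells (0.21) but not that of KLF2 wells (0.52). EV 1 lay above KLF2 1 in complex III (10.8 against 5.94 times) and complex IV (20.1 against 11.9 times).

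Nuclear members varied more between wells of a group than other nuclear genes did in the median. The median within-group SD was 0.29 on the log2 scale for the 78 nuclear genes, beside 0.23 for 10874 nuclear genes with a mean of at least 20. For the 31 on chromosomes 11 to 28 and 30 to 39 it was 0.35, beside 0.26 for all nuclear genes of those chromosomes. For the 33 on chromosomes 1 to 5 it was 0.23, close to the 0.22 of all nuclear genes there. EV 1 exceeded KLF2 1 by a median log2 difference of 0.66 for the 31 and 0.21 for the 33, beside 0.29 and -0.15 for all nuclear genes of the same chromosomes. The median gene length was 1736 bases for the 78 and 3612 bases for all nuclear genes; its part in the spread was not tested.

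Genes that carry electrons, assemble the complexes or express the mitochondrial genome were described from 8 lists outside the naming rule, with 74 genes found by name. 0 had an adjusted or an unadjusted p below 0.05 in limma. Of the 74 genes, SLIRP and UQCC1 were higher without overlap between the groups, beside 3.39% of all genes tested. NRF1 was lower without overlap, beside 3.26% of all genes tested. For the other genes of the lists the groups overlapped. Genes named from a list are the up to 4 with the lowest unadjusted p, and CYCS, TFAM and NRF1 are named for their roles. CYCS, cytochrome c, averaged 3178 ± 511 in KLF2 wells and 2535 ± 454 in EV wells (SD, n = 3 each). In the same list the log2 fold change was 0.20 for FDX1, a ferredoxin, and 0.00069 for FDXR, its reductase, with the sign of FDXR turned to -0.00285 in edgeR, -0.00175 in DESeq2 and -0.017 when scaled without mitochondrial genes. DMAC2 was near 0, with 1.27 ± 2.21 in KLF2 wells and 0.986 ± 1.71 in EV wells. Of 12 genes of mitochondrial DNA replication and transcription 8 were higher and 4 lower (median 0.037); TFAM, which packages mitochondrial DNA and starts its transcription, averaged 711 ± 74.1 in KLF2 wells and 696 ± 38.6 in EV wells. Log2 fold changes were 0.22 for TFB2M, a factor that melts mitochondrial promoters, -0.15 for its relative TFB1M, a ribosomal RNA methyltransferase, -0.34 for POLG, the mitochondrial DNA polymerase, and 0.20 for the nuclease MGME1. Of 16 genes of mitochondrial RNA processing and stability 11 were higher and 5 lower (median 0.076). SLIRP, which stabilises mitochondrial messages, had 253, 219 and 355 in KLF2 1 to 3, against 217, 201 and 166 in EV 1 to 3, without overlap (log2 fold change 0.48, SE 0.23, adjusted p = 0.962, limma). Of 8 nuclear regulators 5 were higher and 3 lower (median 0.058). NRF1, a transcription factor of respiratory chain genes, had 156, 168 and 150 in KLF2 1 to 3, against 193, 198 and 181 in EV 1 to 3, also without overlap in its groups (log2 fold change -0.27, SE 0.20, adjusted p = 0.962, limma). GABPA, a subunit of the factor also known as NRF-2, averaged 2608 ± 476 in KLF2 wells and 2157 ± 275 in EV wells, and overlaps ATP5PF, coupling factor 6, which averaged 754 ± 126 in KLF2 wells and 623 ± 87.5 in EV wells. Log2 fold changes of processing genes were -0.41 for HSD17B10, a component of RNase P, -0.28 for FASTK and 0.16 for MTPAP, the mitochondrial poly(A) polymerase. PPRC1, a coactivator related to PGC-1, averaged 309 ± 85.3 in KLF2 wells and 423 ± 181 in EV wells. SP1, a general activator, averaged 381 ± 141 in KLF2 wells and 592 ± 255 in EV wells.

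Assembly factors outside the naming rule went in both directions, with more higher than lower in each list, beside 49.1% of all genes tested that were higher. Whether this exceeds well-to-well spread was not tested. Of those for complex I 5 of 7 were higher, for complex III 2 of 3, for complex IV 12 of 19 and for complex V 4 of 5, with medians of 0.074, 0.27, 0.034 and 0.052. UQCC1, an assembly factor of complex III, had 1171, 888 and 855 in KLF2 1 to 3, against 711, 851 and 845 in EV 1 to 3, without overlap (log2 fold change 0.27, SE 0.17, adjusted p = 0.962, limma). The gap between KLF2 3 and EV 2 was small. The other assembly factors named by the rule had these log2 fold changes. For complex I they were 0.50 for LYRM2, 0.30 for TMEM126A, 0.15 for TIMMDC1 and -0.20 for FOXRED1. For complex III they were 0.27 for BCS1L, which inserts the Rieske protein, and -0.31 for TTC19. For complex IV they were 0.27 for COX19, 0.29 for CMC1, 0.30 for CMC2 and -0.44 for HIGD2A. For complex V they were 0.27 for TMEM242, 0.19 for TMEM70, 0.052 for ATPAF2 and -0.42 for FMC1.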

How the data were processed

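Gene-level read counts came from poly(A)-selected RNA of 6 wells, 3 per group. The submitters' processing notes name the build GRCg7b and the tools featureCounts 1.5.0-p3, StringTie 1.3.3b, HISAT2 2.0.5 and fastp. For normalization and testing, the authors' software is not given in the sources used. The deposited log2 fold changes nearly equal those of DESeq2 on the recovered reads, as for ND1 with -0.286697 deposited and -0.286696 in DESeq2. The deposited signal is the authors' normalized count, a read count divided by a factor per library. Every value was a whole multiple of the smallest in its library for 100% of values (tolerance 1e-06), so reads were recovered. Per the file headers, the authors' own test results stand beside it: for each gene the p-value, raw and adjusted, and the log2 ratio of KLF2 over EV.

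The main test was limma 3.58.1 in R 4.3.3 (trend, robust, two-sided) on log2(normalized count + 1), which understates changes of low genes, and took in 16765 genes, those that averaged 1 or more in the KLF2 or the EV libraries. Benjamini-Hochberg adjustment ran over all of them, with a threshold of 0.05. On the recovered reads, edgeR 4.0.16 and DESeq2 1.42.0 each called 0 genes. The methods were also run on simulated counts, drawn independently for each gene and library. Deviations shared by many genes of a library were not simulated, so no conclusion is drawn from these runs. Levels between genes are per 1000 bases of the deposited gene length. The libraries of each group differed by more than sampling noise (lowest chi-square per gene within a group 6.77).

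The genes, lists and libraries in doubt were chosen with earlier results of these data known. Named genes were KLF2, all mitochondrial genes, the highest and lowest nuclear subunit per kb of each complex, the 6 per direction with the lowest p, paralogous isoforms, CYCS, TFAM and NRF1, and up to 4 per pathway list. NDUFB9, NDUFA13, NDUFS5, ATP5H, ATP5F1AZ, ATP5PF, NDUFS1, UQCRFS1, COX4I1 and SDHA were named after their values were seen, as was the use of gene ratios, for which all pairs within a genome or complex were computed and the extremes given. Leaving out KLF2 1 and EV 1 together was also tried and is not reported, since it picks libraries by the measured outcome. Other alternatives covered scaling, pseudocount, filter, a replicate block, the gene length trend and leaving out libraries.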

Additional observations from a re-analysis of the deposited data

How the results depend on the processing

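Over 16 alternatives, 0 of the 91 genes passed the threshold. Over all genes the count past it was 0, except 4 with EV 1 and KLF2 3 left out. The median of the mitochondrial genes was negative under all 16, from -0.53 to -0.021, and that of the nuclear subunits ranged from -0.093 to 0.11 and was negative in 3. Leaving out each library in turn, the median of nuclear complex I ranged from -0.24 to 0.059 and that of complex II from -0.14 to 0.093. That of nuclear complex III ranged from 0.013 to 0.23, that of nuclear complex IV from -0.078 to 0.19 and that of nuclear complex V from 0.086 to 0.14. Medians of nuclear complexes III and V were positive under all 16 alternatives. Not all 16 could move these medians. The replicate block and the filters on low values leave each gene's log2 fold change unchanged and can act only by dropping genes. With pseudocounts of 0.1 and 5 the mitochondrial median was -0.290 each time.

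Signs of named genes turned as follows, all without an adjusted p below 0.05, and the cause was not tested. With the gene length trend removed, the log2 fold change was 0.052 for ND3, 0.16 for ND4L, 0.052 for SDHB, 0.063 for UQCR10 and 0.059 for ATP5B. With EV 1 and KLF2 3 left out it was -0.012 for NDUFA10, -0.13 for COX6A1, 0.00433 for ATP5B, -0.048 for TFAM, -0.028 for CMC2, -0.11 for ATPAF2 and -0.14 for COX4I1. UQCR10 had 0.029 in both edgeR and DESeq2. FDXR had -0.00285 in edgeR, -0.00175 in DESeq2 and -0.017 when scaled without mitochondrial genes, where COX4I1 had -0.0089.

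Leaving out each library in turn gave ranges that crossed 0 for COX3 (-0.60 to 0.12), ND2 (-0.51 to 0.042), ND3 (-0.40 to 0.092), ND4L (-0.34 to 0.19), ND6 (-0.75 to 0.063), NDUFA10 (-0.016 to 0.093), SDHB (-0.30 to 0.092), SDHC (-0.61 to 0.20), UQCR10 (-0.51 to 0.32), UQCRQ (-0.46 to 0.21), COX6A1 (-0.15 to 0.15) and ATP5B (-0.16 to 0.11). They also did for NDUFAF7 (-0.47 to 0.0093), TFAM (-0.044 to 0.11), DMAC2 (-0.24 to 0.76), FDXR (-0.091 to 0.11), TIMMDC1 (-0.074 to 0.26), FOXRED1 (-0.41 to 0.057), HIGD2A (-0.86 to 0.082), TMEM70 (-0.025 to 0.41), FMC1 (-1.18 to 0.092) and ATPAF2 (-0.13 to 0.26). The rest were MGME1 (-0.020 to 0.32), POLG (-0.76 to 0.087), NDUFA13 (-0.94 to 0.10), NDUFS5 (-0.85 to 0.11), ATP5F1AZ (-0.023 to 0.21), COX4I1 (-0.084 to 0.077) and SDHA (-0.054 to 0.083).

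With the replicate number as a replicate block, 0 genes passed the threshold and 228 had an unadjusted p below 0.05, against 354 without it. Same-numbered libraries correlated at -0.600, 0.144 and -0.511 in their deviations from the group means. Deviations of only 3 libraries a group are tied to each other, so these values cannot show whether same-numbered wells shared a day or batch. Unadjusted counts over all genes ranged from 122, with a mean of at least 20 required, to 2081 without KLF2 3. With 3 wells a group and 95% intervals that cross 0 for all but 2 of the 91 genes, differences of the sizes seen could not be told from well-to-well spread.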

Other observations

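The table holds 13 genes outside the naming rule whose deposited description matches a respiratory chain protein. The gene matched to COX8A, the ubiquitous subunit 8 of complex IV, had normalized counts of 46.7, 148 and 371 in KLF2 1 to 3, against 314, 202 and 192 in EV 1 to 3. KLF2 1 was the lowest and KLF2 3 the highest, so the KLF2 wells lay on both sides of the EV wells (log2 fold change -0.74, SE 0.75). The match to COX6B1, a subunit that faces the intermembrane space, had 407, 454 and 1136 in KLF2 1 to 3, against 844, 572 and 504 in EV 1 to 3, the same order of extremes as COX8A within the KLF2 group. The match to COX6A2, an isoform of heart and skeletal muscle in mammals, averaged 0.637 ± 1.10 in KLF2 wells and 0.329 ± 0.569 in EV wells (SD, n = 3 each). The match to COX8B, also a muscle isoform, averaged 1.02 ± 1.02 in KLF2 wells and 1.59 ± 2.76 in EV wells. The match to COX7A1, another such isoform, averaged 69.6 ± 22.5 in KLF2 wells and 54.8 ± 6.04 in EV wells. A further gene for subunit c of the ATP synthase ring, matched to ATP5MC3, averaged 1386 ± 66.2 in KLF2 wells and 1346 ± 201 in EV wells.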
